A study of Mus musculus with 20 samples.

Results

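The canonical histone genes of the mouse were followed in CD4+ T cells with and without the histone methyltransferase DOT1L. The genes were taken as the rows of the protein-coding count table whose symbol begins with Hist, a cluster digit and h, and that held at least 20 counts summed over all 20 libraries. This gave 41 genes of the 68 with such a symbol, among 22048 protein-coding genes. Of the 27 genes left out, 11 had 0 counts in every library. The genes just inside the limit were Hist1h3f with 21 counts and Hist1h2an and Hist1h3g with 22 each, and those just outside were Hist2h2bb with 19, Hist1h2ac with 17 and Hist1h2ad with 16. The 41 genes comprised 5 of 6 linker histone H1 genes, 8 of 19 H2A genes, 10 of 18 H2B genes, 8 of 12 H3 genes and 10 of 13 H4 genes. They lay in the Hist1 cluster on chromosome 13 (34 genes), the Hist2 cluster on chromosome 3 (4 genes), the Hist3 cluster on chromosome 11 (2 genes) and as Hist4h4 on chromosome 6.

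The cells were CD4+ T cells that had been isolated from spleens and peripheral lymph nodes of mice. WT mice carried Cre recombinase under CD4 control, and KO mice carried the same Cre together with loxP-flanked Dot1l alleles. All groups therefore carried the Cre, and the KO depends on deletion in cells that express it. The naive groups are the starting population. The cultured groups were stimulated for 4 days with antibodies to CD3 and CD28 bound to the plate, each at 1 µg/ml, and then sorted as viable CD4+ cells. Th1 cultures received IL-2 and IL-12 (10 ng/ml each) and anti-IL-4 (10 µg/ml), and Th2 cultures received IL-2 and IL-4 (10 ng/ml each) and anti-IFN-g (10 µg/ml). Further WT Th1 and Th2 cultures received the DOT1L inhibitor SGC0946 or the control compound SGC0649, both at 1 µM. The 10 groups had n = 2 libraries each. Nothing in the labels says whether the libraries of a group came from separate animals, so p-values measure only the spread between these libraries, which may be technical.

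Canonical histones are made in bulk while DNA is copied, to package the new strands. Their genes lack introns, sit in clusters, and are transcribed at the histone locus body under NPAT. The pre-mRNA is cut just after a short stem-loop that binds SLBP, and the mature RNA normally has no poly(A) tail. Some canonical genes are also known to give longer, polyadenylated RNA from a site past the stem-loop, in cells that have stopped dividing. DOT1L adds methyl groups to a lysine in the globular core of histone H3, over the bodies of transcribed genes.

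The stem-loop was looked for in the annotated transcripts of each gene, because it marks where the tailless RNA ends. The pattern searched on the gene's strand had 16 bases, with fixed letters at the foot of the stem and in part of the loop, any base in the rest of the loop, and a choice of purines or of pyrimidines at positions within the stem. Among the 41 genes, 39 had a transcript in GENCODE M21 on GRCm38, 29 had a match, and 10 had none. Only bases past the stop codon were searched, so an annotated transcript that ends at the stop codon cannot give a match. A gene with no match may thus still have a stem-loop. The matches fell into 7 sequences, of which the 3 most frequent are shown, the first with 13 genes and the others with 5 each. Capitals mark the stem and lower case the loop.

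Hist1h1c and 12 others: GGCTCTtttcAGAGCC

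Hist1h4d and 4 others: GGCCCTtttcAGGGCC

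Hist1h3c and 4 others: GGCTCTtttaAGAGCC

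The stem-loop began 21 to 54 bases past the stop codon (median 32). Hist1h4i and Hist2h4 carried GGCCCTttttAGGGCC. No match was found in the transcripts of Hist1h2bc and Hist2h2be, which says only that these letters are not in those annotated transcripts.

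Promoters were searched on both strands, over 250 bases before the RefSeq start site (GRCm38.p6), for the CCAAT box, the TATAAA element of the core promoter, the octamer ATTTGCAT bound by POU2F1, the GC box GGGCGG and, added after other results were known, AAACACA, an element of H1 promoters. Of the 41 genes, 36 matched a RefSeq promoter. CCAAT was in 77.8% of these against 34.5% of all 27025 promoters, TATAAA in 50% against 12.97%, and GGGCGG in 36.1% against 32.9%. The octamer was in 22.2% against 1.61%, in 4 of 8 H2A and 4 of 8 H2B promoters and in no H1, H3 or H4 promoter searched. AAACACA was in 16.7% against 6.22%, including 4 of 5 H1 promoters. GGGCGG was in 8 of 9 H4 promoters. The promoters of the H1 genes Hist1h1c and Hist1h1e and of Hist1h3c are shown because these genes gave the results that follow, with the motifs in capitals.

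Hist1h1c, chr13:23738557-23738806, plus strand: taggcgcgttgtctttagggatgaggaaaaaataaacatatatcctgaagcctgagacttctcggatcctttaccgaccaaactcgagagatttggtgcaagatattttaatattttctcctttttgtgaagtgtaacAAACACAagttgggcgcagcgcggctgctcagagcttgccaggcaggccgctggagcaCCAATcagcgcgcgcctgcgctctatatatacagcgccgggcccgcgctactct

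Hist1h1e, chr13:23622559-23622808, minus strand: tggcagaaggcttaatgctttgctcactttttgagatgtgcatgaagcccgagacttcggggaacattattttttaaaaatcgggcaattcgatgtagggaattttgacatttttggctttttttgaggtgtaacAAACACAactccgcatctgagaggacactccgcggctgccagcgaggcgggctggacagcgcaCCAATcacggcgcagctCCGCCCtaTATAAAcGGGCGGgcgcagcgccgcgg

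Hist1h3c, chr13:23745522-23745771, minus strand: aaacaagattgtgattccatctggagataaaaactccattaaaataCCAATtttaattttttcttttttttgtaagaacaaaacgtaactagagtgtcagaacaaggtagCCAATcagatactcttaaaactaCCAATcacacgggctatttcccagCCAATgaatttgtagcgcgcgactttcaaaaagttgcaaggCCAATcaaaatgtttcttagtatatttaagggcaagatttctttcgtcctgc

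The H1 pair share AAACACA at position -112 or -115 from the start site and CCAAT at -54 or -52. Hist1h3c has 5 copies of CCAAT and none of the other motifs searched.

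The 41 genes gave little RNA in these libraries. They held 15638 of 217238189 protein-coding counts (0.00720%), with a median of 78 counts per gene over all libraries, and 27 genes had under 100. Libraries held 9704500 to 13025588 protein-coding counts each. The labels give the molecule as total RNA, but the RNAs without a tail looked at were nearly absent from the counts. Rn7sk, an abundant nuclear RNA, had 6 to 44 counts per library apart from 260 in WT naive replicate 1, Rmrp had 0 to 3 apart from 63 in the same library, and Rn7s1, Rn7s2 and Rny3 had 0 in all libraries. A selection step for tailed RNA is not given in the sources used here, and its part in the levels was not tested. Between 27.4% and 34.9% of alignments per library mapped to several places and were not counted. In the 39 genes with a transcript, a median of 43.2% of the 50-base stretches were shared with another gene, and in the 11 genes at 0 counts the median was 93.1%. Low counts in genes with near copies are therefore uncertain. Near copies of the RNAs without a tail were not looked for, so their low and 0 counts carry the same limit.

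Hist1h1c, which encodes the linker histone H1.2, dominated the set. It is a gene of 1 exon on the plus strand of chromosome 13, from 23738808 to 23740367 (GRCm38), and it held 8140 counts, 52.1% of the total over the 41 genes. Hist2h2be followed with 1399 counts, Hist1h4i with 1240, Hist1h2bc with 932, Hist3h2a with 583 and Hist3h2ba with 521. These 6 genes held 81.9% of the counts. Per kilobase of the counted gene model, averaged over the 20 libraries, Hist1h1c stood at 24.2 CPM (depth-normalised counts with TMM scaling), Hist1h4i at 7.88, Hist1h2bc at 5.82, Hist3h2ba at 3.91, Hist2h2be at 2.48 and Hist1h4d at 2.29. Within the H3 class, Hist1h3c at 1.64 and Hist1h3a at 0.712 CPM per kilobase were highest. Hist1h2ak reached 1.08 and Hist3h2a 1.25 CPM per kilobase among H2A genes.

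**Figure D1:**
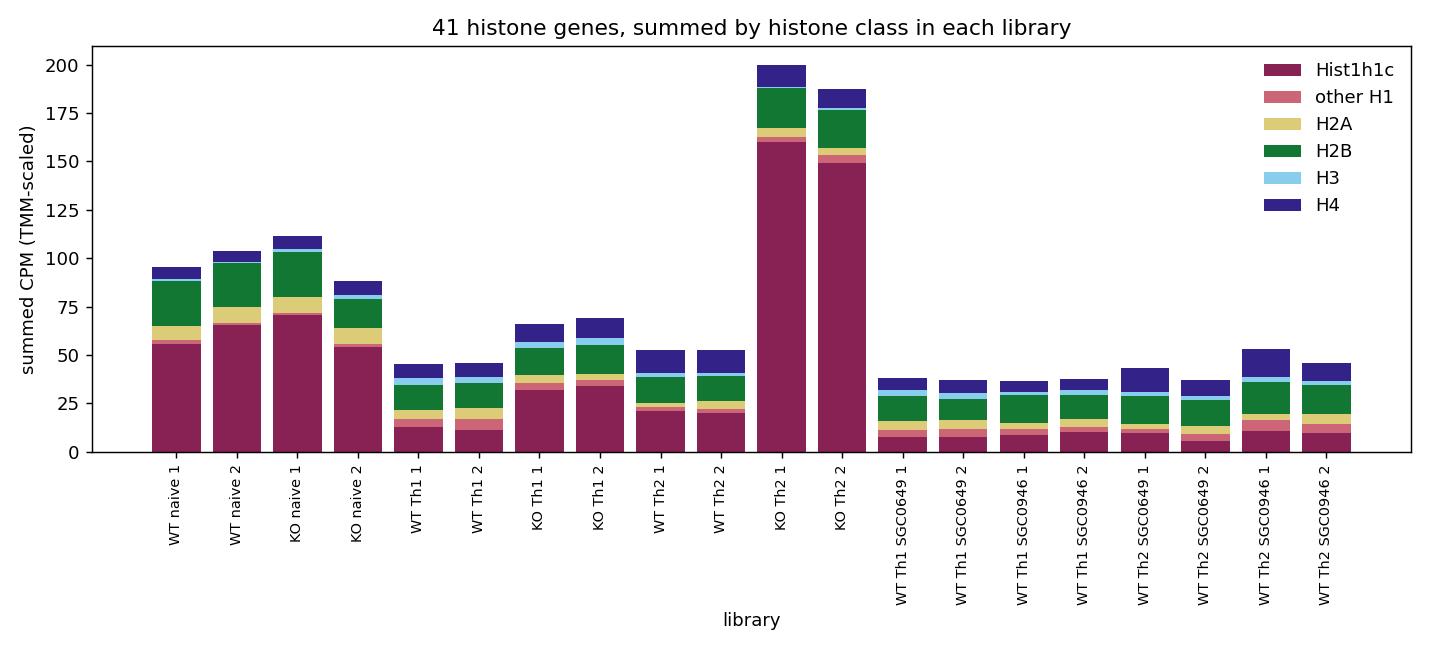
Summed TMM-scaled CPM of the 41 histone genes in each of the 20 libraries, stacked by class with Hist1h1c apart (bars start at 0). The KO Th2 bars reach 199.8 and 187.7 CPM, and Hist1h1c makes up most of the height in the naive and KO Th2 libraries.

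The abundant genes had gene models that run well past the stem-loop, or had no match. In 11 genes the counted model extended at least 100 bases past the stem-loop, and these held 10982 counts. The extension was 840 bases in Hist1h1c, 330 in Hist1h4i, 169 in Hist3h2ba and 1643 in Hist3h2a. In 18 genes it was under 100 bases, and these held 1707 counts, while the 12 genes with no match or no transcript held 2949. Per kilobase the medians were 0.341, 0.692 and 0.563 CPM in that order. This measure divides by the full counted model, extension included, which lowers it in extended models. It therefore cannot say whether extended models go with more RNA. Part of the Hist3h2a model (708 bases) overlaps Trim17 on the same strand, and 320 bases of Hist1h2be overlap Gm11398.

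**Figure D2:**
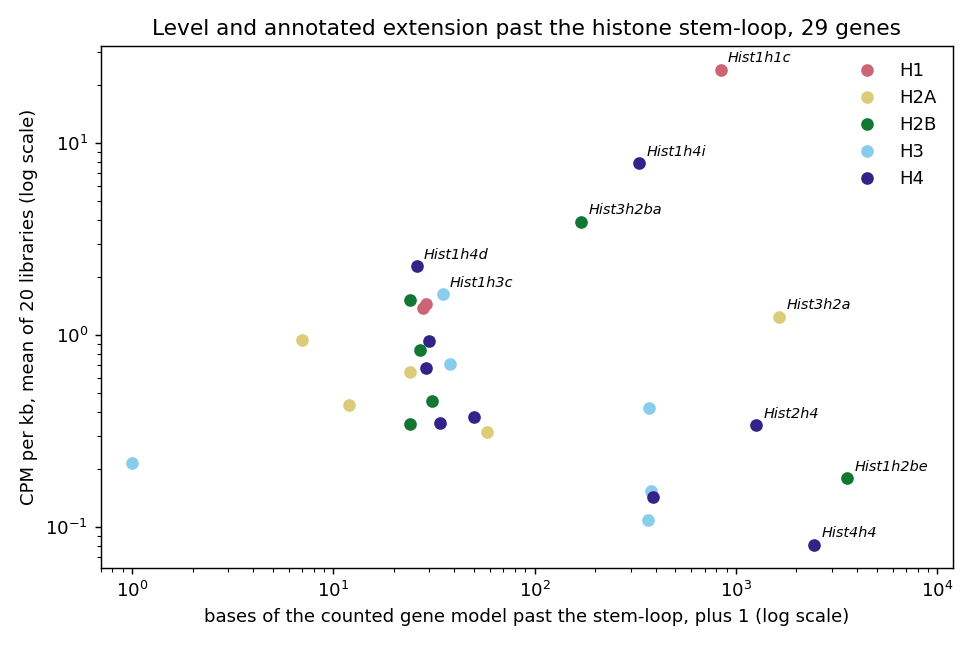
CPM per kilobase (mean of 20 libraries, log scale) against the bases of the counted gene model past the stem-loop plus 1 (log scale), for the 29 genes with a stem-loop match, coloured by class. Hist1h1c, Hist1h4i and Hist3h2ba lie above the rest at 840, 330 and 169 bases, while Hist4h4, Hist2h4 and Hist1h2be are low. The level is divided by the full model length, so long models lower it.

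A low-count filter left 15 of the 41 genes for testing, and the other 26 had no test in the fit reported here. The filter keeps genes that are high in some group, so counts over the 15 do not describe the whole set. The summed level, of which Hist1h1c made up 52.1% over all libraries, was lower in the WT cultures than in WT naive cells. These libraries held few counts of the RNAs without a tail that were looked at. The 41 genes summed to 95.4 and 103.5 CPM in WT naive libraries, against 45.4 and 45.8 in WT Th1 and 52.6 and 52.4 in WT Th2. Sums of 16 mitosis genes ran the other way, from 315 to 364 CPM in WT naive libraries to 2852 and 3111 in WT Th1 and 1570 and 2117 in WT Th2. Without Hist1h1c, the other 40 genes summed to 38.3 to 40.0 CPM in WT naive, 32.8 to 34.7 in WT Th1 and 31.6 to 32.5 in WT Th2. The class sums differed in direction. The 8 H3 genes summed to 0.982 and 0.719 CPM in WT naive, 3.40 and 2.98 in WT Th1 and 1.92 and 1.86 in WT Th2, with both cultures above naive. The 10 H4 genes summed to 6.18 and 5.21 CPM in WT naive, 7.56 and 7.28 in WT Th1 and 12.05 and 11.7 in WT Th2, again above naive. Within these sums, Hist1h4i alone held 2.75 and 2.51 CPM in WT naive, 4.42 and 4.38 in WT Th1 and 8.94 and 8.79 in WT Th2. The H4 sums therefore follow Hist1h4i and do not show a rise of the other H4 genes. The 26 genes below the filter were 2.07-fold higher in WT Th1 as a sum. In WT Th2 they summed to 4.65 to 5.89 CPM, which overlapped the 3.59 to 4.91 of WT naive. The 10 H2B genes were lower in both cultures, at 23.4 and 22.99 CPM in WT naive against 13.1 and 13.2 in WT Th1 and 13.3 and 12.7 in WT Th2.

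Culture of WT cells went with changes in both directions. Against WT naive cells, WT Th1 cultures had 6 genes higher and 6 lower of the 15 tested, where 67.3% of all genes tested were called, 34.3% higher and 33% lower. Here and below a gene was called at an adjusted p under 0.05 in the quasi-likelihood test. In such bulk RNA, a change in the number of cells of a type and a change in RNA per cell cannot be told apart. Hist1h1c stood at 55.5 and 65.2 CPM in WT naive libraries and at 12.7 and 11.1 in WT Th1. The groups were far apart, and Hist1h1c fell by 2.35 ± 0.17 on the log2 scale (log2 change ± SE, adjusted p = 3.96e-09). Marker RNA of some other cell types fell in culture too, but mast cell and basophil markers went the other way. The latter summed to 64.5 and 31.9 CPM in WT naive, 193 and 145 in WT Th1 and 73.8 and 81.0 in WT Th2. Erythroid markers summed to 317 and 202 CPM in WT naive libraries, 0.934 and 0.248 in WT Th1 and 1.37 and 1.24 in WT Th2, with 8 of 8 called lower in both. Myeloid and dendritic cell markers summed to 417 and 319 CPM in WT naive, 69.4 and 72.3 in WT Th1 and 109 and 77.3 in WT Th2, with 5 of 9 lower in both and 1 higher in WT Th1. The part of these cells in the changes from naive was not tested. Hist3h2a went from 6.68 and 6.83 CPM to 1.61 and 1.90 (log2 change -1.93 ± 0.36, adjusted p = 0.000140). Hist2h2be went from 13.4 and 11.7 CPM to 5.43 and 5.46 (log2 change -1.20 ± 0.23, adjusted p = 0.000189). Hist1h2bc (-0.97), Hist3h2ba (-1.07) and Hist2h4 (-1.40) were the other genes that fell in log2 change. The Hist1h2bc call was lost without WT naive replicate 2 or WT Th1 replicate 1 (log2 change -0.42 to -1.88 over all alternatives), and that of Hist3h2ba without WT naive replicate 2 or WT Th1 replicate 2.

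The genes that rose in WT Th1 were mostly low ones. Hist1h3c, an H3 gene of 1 exon on the minus strand of chromosome 13 from 23745013 to 23745501, had 1 and 2 counts in WT naive libraries and 17 and 14 in WT Th1 (log2 change 3.11 ± 0.60, adjusted p = 0.000272). Hist1h1d, a linker histone gene, went from 0.491 and 0.359 to 1.36 and 1.49 CPM (log2 change 1.73 ± 0.53, adjusted p = 0.00863). With WT naive replicate 2 left out, the adjusted p for Hist1h1d was 0.0707 and the call did not hold. Hist1h4i went from 2.75 and 2.51 to 4.42 and 4.38 CPM (log2 change 0.74 ± 0.27, adjusted p = 0.0246), a call lost with DESeq2, with limma voom and without any 1 of the 4 libraries. Hist1h1b, Hist1h2bj and Hist1h2ai also rose, and these 3, like Hist1h1e, Hist1h2be and Hist2h4 elsewhere, were named after their values were seen. Hist1h1b went from 0 and 2 counts to 11 and 21 (log2 change 3.68 ± 0.79), and Hist1h2bj from 4 and 1 to 14 and 14 (log2 change 2.26 ± 0.58). Hist1h2ai went from 0 counts in both WT naive libraries to 5 and 7, at least 3.57-fold higher with a floor of 3 counts over the naive group. Floors and bounds here cover counting error only.

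WT Th2 cultures showed 3 genes higher and 4 lower against WT naive cells, with 71.9% of all genes called, 36.9% higher and 35% lower. This comparison shares its naive libraries with the one before. Hist1h1c stood at 20.99 and 19.95 CPM in WT Th2 (log2 change -1.56 ± 0.17, adjusted p = 2.51e-07). Hist1h4i rose to 8.94 and 8.79 CPM (log2 change 1.75 ± 0.26, adjusted p = 1.29e-05), and Hist1h3c to 9 and 11 counts (log2 change 2.69 ± 0.64, adjusted p = 0.00140). Hist3h2a (-2.29), Hist2h2be (-0.97) and Hist2h4 (-1.51) fell in log2 change, and Hist1h2ai was at least 3.10-fold higher.

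The 2 culture conditions differed from each other in 5 of the 15 genes, where 53.3% of all genes were called, 26% higher in WT Th1 and 27.3% lower. Higher in WT Th1 than in WT Th2 were Hist1h1b (log2 change 1.94 ± 0.62), Hist1h1d (1.40 ± 0.51) and Hist1h2bj (2.53 ± 0.61). Lower in WT Th1 were Hist1h4i (-1.01 ± 0.24, adjusted p = 0.00198) and Hist1h1c (-0.79 ± 0.18, adjusted p = 0.00170). The Hist1h1d call was lost with DESeq2 and without any 1 of the 4 libraries (adjusted p up to 0.108).

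The 35 genes other than the 6 most abundant summed to 18 and 18.4 CPM in WT Th1, against 10.3 and 8.0 in WT naive and 10.3 and 10.96 in WT Th2 libraries. These sums are descriptions, with no test. Among 31 S phase genes, 29 rose and 1 fell in WT Th1 against naive cells (median log2 change 1.67), and 22 rose and 1 fell in WT Th2 (median 1.11). All 16 mitosis genes rose in both (medians 3.01 and 2.30), beside a median over all genes of 0.00370 and 0.0299. Slbp, which encodes the stem-loop binding protein, rose in WT Th1 (log2 change 0.67 ± 0.13, adjusted p = 0.000215) and stood at -0.08 ± 0.13 in WT Th2. H2afz, which encodes the replacement histone H2A.Z and is also made outside S phase, fell in WT Th1 (log2 change -1.81 ± 0.13) and WT Th2 (-1.83 ± 0.13). H3f3b, a source of the replacement histone H3.3, also fell in both (-0.97 ± 0.10 and -1.25 ± 0.10). Over the 10 tested replication-independent histone genes 5 rose and 4 fell in WT Th1 (median log2 change 0.45), and 3 rose and 4 fell in WT Th2 (median -0.29). Pcna, the DNA polymerase clamp, rose in WT Th1 (0.91 ± 0.21) and did not pass in WT Th2 (-0.46 ± 0.21, adjusted p = 0.0646).

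**Figure D3:**
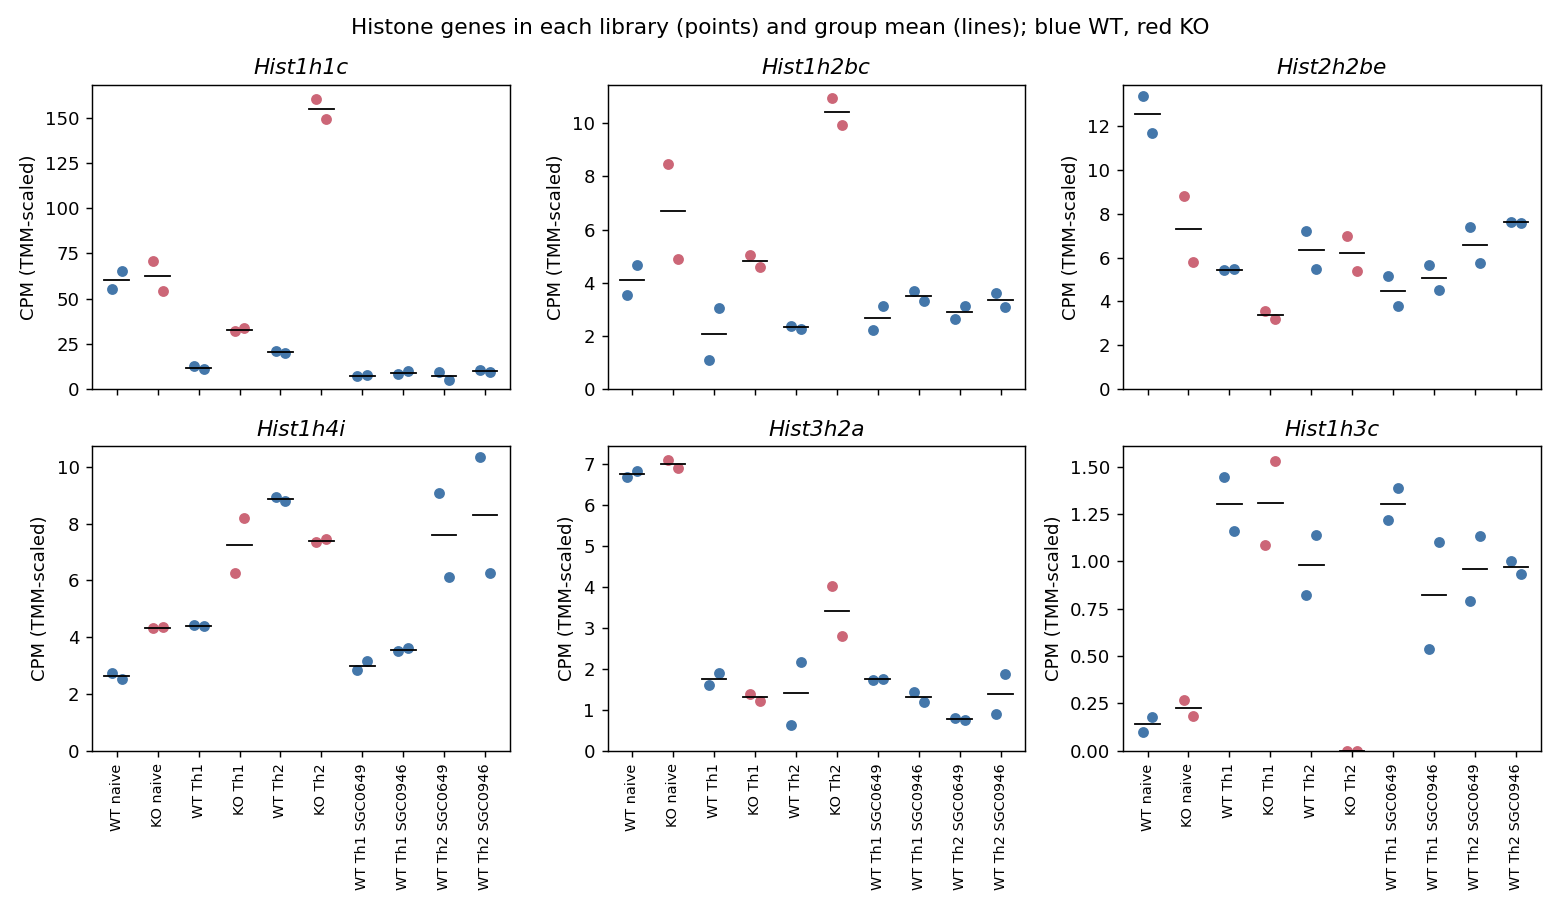
TMM-scaled CPM of Hist1h1c, Hist1h2bc, Hist2h2be, Hist1h4i, Hist3h2a and Hist1h3c in the 10 groups (points are libraries, lines are group means, blue WT and red KO). Hist1h1c and Hist1h2bc are highest in KO Th2, at 160 and 149 and at 10.9 and 9.92 CPM, while Hist1h3c is at 0 in both KO Th2 libraries.

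Dot1l RNA is a weak check of the KO, since exons outside the deleted part are counted too. Its level was 146 and 166 CPM in KO naive against 163 and 171 in WT naive, 131 and 146 in KO Th1 against 176 and 186 in WT Th1, and 113 and 92.5 in KO Th2 against 148 and 164 in WT Th2. Dot1l fell in KO Th1 (log2 change -0.39 ± 0.11, adjusted p = 0.00841) and KO Th2 (-0.60 ± 0.11, adjusted p = 0.000269) and not past the test in naive cells (-0.10 ± 0.11, adjusted p = 0.544). Cd4 RNA was lower in the KO in all 3 conditions, by -1.29 ± 0.11, -2.32 ± 0.12 and -1.76 ± 0.12 on the log2 scale.

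In naive cells, 2 of these genes differed between KO and WT, with Dot1l RNA not lower past the test. Of the 15 tested genes 0 were higher and 2 lower in KO, where 28.4% of all genes were called, 16% higher and 12.4% lower. Hist2h2be, an H2B gene on the plus strand of chromosome 3 from 96221119 to 96223738, stood at 8.81 and 5.82 CPM in KO naive against 13.4 and 11.7 in WT naive. These did not overlap (log2 change -0.77 ± 0.22, adjusted p = 0.0165), but the call was lost without WT naive replicate 1 or KO naive replicate 2 (adjusted p up to 0.158). Hist1h1e, the gene of linker histone H1.4, had 4 and 3 counts in KO naive against 14 and 9 in WT naive (log2 change -1.74 ± 0.58, adjusted p = 0.0351). The Hist1h1e call was lost with no filter, with DESeq2 and with the libraries of the contrast alone. It was also lost in a fit with a library left out. Hist1h1c was at 70.9 and 54.1 CPM in KO naive, around the WT naive values (log2 change 0.05 ± 0.15, 95% interval -0.29 to 0.39, adjusted p = 0.848). The sum over the 41 genes was 111.7 and 88.3 CPM in KO naive, which overlapped WT naive.

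Other cell types' RNA moved with genotype in the naive libraries. The summed level of 8 erythroid markers was 1353 and 328 CPM in KO naive against 317 and 202 in WT naive, with 6 of 8 called higher. That of the myeloid and dendritic cell markers (10 gene entries, with Itgam repeated) was 1007 and 514 CPM against 417 and 319, with 6 of 9 tested called higher. The 16 mitosis genes included 10 called higher and 0 lower in KO naive (median log2 change 1.12), and the S phase list 9 higher and 0 lower of 31 (median 0.49). Npat, the factor of the histone locus body, fell by 0.32 on the log2 scale (SE 0.11, adjusted p = 0.0393). The part of these RNAs in the 2 histone calls was not tested.

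In Th1 cultures, Hist1h1c and Hist1h2bc were higher in KO. Of the 15 tested genes 3 were higher and 1 lower, where 50.6% of all genes were called, 24.8% higher and 25.8% lower. Hist1h1c stood at 32.0 and 33.8 CPM in KO Th1 against 12.7 and 11.1 in WT Th1, well apart, 2.77-fold higher (log2 change 1.47 ± 0.18, adjusted p = 3.84e-06). Over 12 alternatives this value ran from 1.37 to 1.61 and remained called in each. Hist1h2bc, an H2B gene whose 2-exon model on chromosome 13 runs from 23684199 to 23692488 on the plus strand, stood at 5.03 and 4.59 CPM in KO Th1. Its WT Th1 libraries differed from each other, at 1.10 and 3.06 CPM (log2 change 1.20 ± 0.35, adjusted p = 0.00960). The call was lost without WT Th1 replicate 1 (the lower library) or KO Th1 replicate 1, and the log2 change ran from 0.64 to 2.10.

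Hist1h4i rose and Hist2h2be fell in KO Th1, and both calls were close to the threshold. Hist1h4i, an H4 gene on the minus strand of chromosome 13 from 22040636 to 22041362, stood at 6.27 and 8.21 CPM in KO Th1 against 4.42 and 4.38 in WT Th1 (log2 change 0.72 ± 0.24, adjusted p = 0.0198). The call was lost without WT Th1 replicate 1, WT Th1 replicate 2 or KO Th1 replicate 2 (adjusted p up to 0.176), with log2 changes of 0.50 to 0.89 over 12 alternatives. Hist2h2be stood at 3.56 and 3.22 CPM in KO Th1 against 5.43 and 5.46 (log2 change -0.68 ± 0.25, adjusted p = 0.0330), and was lost without any 1 of the 4 libraries, with DESeq2 and with scaling by library totals (adjusted p up to 0.140), while its log2 change stayed at -0.77 to -0.55. Hist1h3c did not differ past the test (log2 change 0.01 ± 0.39, 95% interval -0.87 to 0.88). The other linker histone genes tested, Hist1h1b, Hist1h1d and Hist1h1e, had log2 changes of -0.49, -0.84 and -0.60, and none passed.

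Summed over the 41 genes, KO Th1 libraries held 65.8 and 69.1 CPM against 45.4 and 45.8 in WT Th1. Without Hist1h1c the sums were 33.8 and 35.3 against 32.8 and 34.7, which overlapped. Over these libraries the S phase list had 22 genes higher and 0 lower of 31 (median log2 change 0.63), while 0 of 16 mitosis genes passed edgeR's test in either direction (median 0.46). Of 20 histone chaperone genes 9 rose and 4 fell. Those that rose included Chaf1a (0.66 ± 0.26) and Chaf1b (0.73 ± 0.22), subunits of the factor that deposits histones behind the replication fork. Among 10 tested replication-independent histone genes 3 rose and 2 fell. H1f0, the linker histone of resting cells, rose (log2 change 0.71 ± 0.07), as did H1fx (2.37 ± 0.43) and H2afz (0.37 ± 0.14). Markers of mast cells and basophils were higher in KO Th1 in all 10 of 10 genes, with sums of 2294 and 996 CPM against 193 and 145 in WT Th1,. Myeloid and dendritic cell markers summed to 150 and 128 CPM against 69.4 and 72.3, with 4 of 9 tested genes higher and 0 lower, and erythroid markers to 10.2 and 8.13 against 0.934 and 0.248, with 2 of 8 higher. Of 4 NK cell markers 3 were higher and 1 lower. CD4 T cell markers summed to 3751 and 3628 CPM against 5006 and 4878, with 1 of 7 higher and 5 lower. The part of these cells in the KO Th1 histone values was not tested.

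KO Th2 cultures held the highest summed histone level and the highest Hist1h1c level of the 10 groups. Of the 15 tested genes 4 were higher and 1 lower in KO Th2, where 53.4% of all genes were called, 26.5% higher and 26.9% lower. Hist1h1c had 1832 and 1384 counts in KO Th2 against 230 and 193 in WT Th2. As CPM this was 160 and 149 against 20.99 and 19.95, 7.56-fold higher (log2 change 2.92 ± 0.17, adjusted p = 4.45e-10), and both KO Th2 libraries also lay above every other library of the study. Hist1h2bc stood at 10.9 and 9.92 CPM against 2.37 and 2.27, 4.47-fold higher (log2 change 2.16 ± 0.34, adjusted p = 4.72e-05). Both calls remained under all 12 alternatives, with log2 changes of 2.75 to 2.98 and of 1.99 to 2.22.

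Hist1h1d and Hist3h2a rose with less certainty. Hist1h1d stood at 1.05 and 2.05 CPM in KO Th2 against 0.547 and 0.517 in WT Th2 (log2 change 1.49 ± 0.52, adjusted p = 0.0223). It was lost with DESeq2, with the libraries of the contrast alone and without WT Th2 replicate 1, WT Th2 replicate 2 or KO Th2 replicate 2 (adjusted p up to 0.223). Hist3h2a, an H2A gene on the plus strand of chromosome 11 from 58954685 to 58956830, stood at 4.03 and 2.80 CPM against 0.639 and 2.17 (log2 change 1.32 ± 0.40, adjusted p = 0.0108). It was lost with the libraries of the contrast alone and without WT Th2 replicate 1 or KO Th2 replicate 1, and its log2 change ran from 0.69 to 2.42.

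Hist1h3c went the other way. It had 0 counts in both KO Th2 libraries and 9 and 11 in WT Th2, at least 6.69-fold lower with a floor of 3 counts over the KO group (adjusted p = 0.000109). In the other 18 libraries it had 1 to 3 counts in the naive ones and 6 to 19 in the cultured ones. The call remained in each of the 11 alternatives that could test it, and with the libraries of the contrast alone it fell below the filter. Its neighbours by level in the class were too low for the filter, and the 8 H3 genes summed to 0.755 and 0.963 CPM in KO Th2 against 1.92 and 1.86 in WT Th2. These sums include Hist1h3c itself, at 0 CPM in both KO Th2 libraries and 0.821 and 1.14 in WT Th2. They therefore do not show a fall of the other H3 genes. With no filter, Hist1h2ak (log2 change -2.45, adjusted p = 0.0477) and Hist1h4b (-2.85, adjusted p = 0.0357) were also called lower in KO Th2, from 2 counts over both KO libraries against 12 in WT Th2 for Hist1h2ak. Hist1h4i (-0.26 ± 0.23, 95% interval -0.78 to 0.25), Hist2h2be (-0.03 ± 0.24, interval -0.57 to 0.51), Hist1h1e (0.06 ± 0.47), Hist3h2ba (-0.88 ± 0.45) and Hist1h4d (-0.68 ± 0.60) did not pass.

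**Figure D4:**
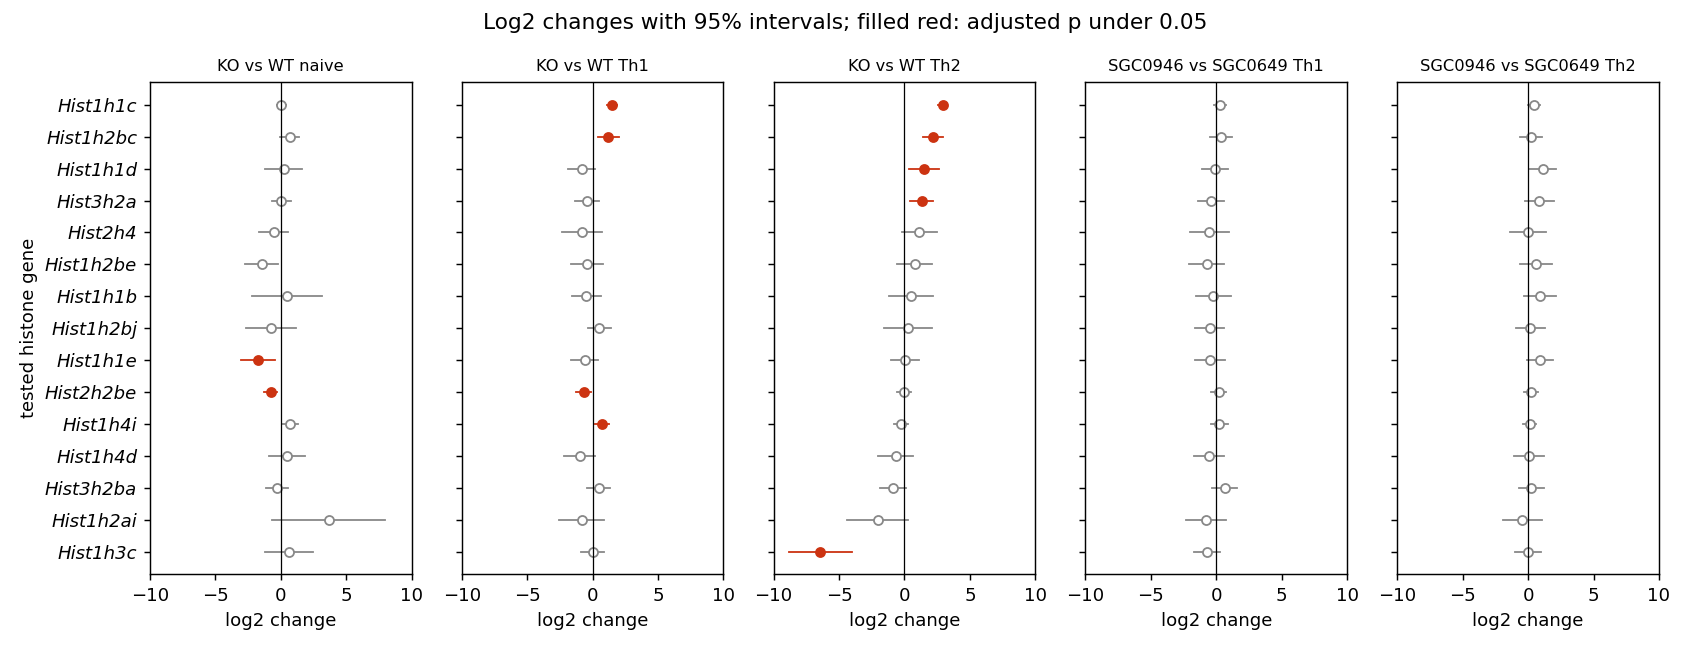
Log2 changes of the 15 tested histone genes with 95% intervals in 5 comparisons, ordered by KO against WT in Th2 (filled red circles are called at an adjusted p under 0.05, open grey circles are not). Hist1h1c and Hist1h2bc are to the right of 0 in KO Th1 and KO Th2, Hist1h3c is far to the left in KO Th2 alone among these panels, and no gene is called with SGC0946.

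Summed over the 41 genes, KO Th2 libraries held 199.8 and 187.7 CPM against 52.6 and 52.4 in WT Th2. Without Hist1h1c the sums were 38.4 and 39.5 against 31.6 and 32.5. Those sums include Hist1h2bc, at 10.9 and 9.92 CPM in KO Th2 against 2.37 and 2.27 in WT Th2. They therefore do not show a rise of the remaining genes. In contrast to KO Th1, 15 of 16 mitosis genes fell and 0 rose in KO Th2 (median log2 change -1.49), and 13 of 31 S phase genes fell and 2 rose (median -0.38, beside -0.00810 over all genes). The mitosis genes summed to 316 and 957 CPM in KO Th2 against 1570 and 2117 in WT Th2. Of 16 tested genes for histone RNA processing and histone gene control, 2 rose and 8 fell. Npat fell from 77.9 and 85.9 CPM in WT Th2 to 30.8 and 33.4 in KO Th2 (log2 change -1.35 ± 0.11, adjusted p = 4.19e-08). Eri1, an exonuclease that trims histone mRNA ends, fell (-0.88 ± 0.16), as did Zfp473, a zinc finger protein of the histone RNA processing machinery (-0.94 ± 0.18), and Pou2f1, the octamer factor (-0.45 ± 0.10). Slbp did not pass (0.21 ± 0.13, adjusted p = 0.204). Among 20 histone chaperones 1 rose and 8 fell, including Asf1a (-1.35 ± 0.16), a carrier of H3 and H4, and Nap1l1 (-1.40 ± 0.15), a carrier of H2A and H2B. Among 10 replication-independent histone genes 2 rose and 4 fell. Cenpa, the centromeric H3 (-1.46 ± 0.31), H2afx, the variant marked at DNA breaks (-1.004 ± 0.23), and H1fx (-2.22 ± 0.66) fell, and H2afy, which encodes macroH2A (0.57 ± 0.10), rose.

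Markers of other cells also moved in KO Th2. The 2 CD8 T cell markers summed to 130 and 267 CPM in KO Th2 against 13.05 and 16.2 in WT Th2, both called higher, although the cells were sorted on CD4. Myeloid and dendritic cell markers summed to 247 and 311 CPM against 109 and 77.3, with 4 of 9 tested genes higher and 1 lower. Mast cell and basophil markers summed to 89.5 and 152 CPM against 73.8 and 81.0, with 1 of 10 higher. CD4 T cell markers summed to 3750 and 4631 CPM against 2877 and 2704, but of the 7 genes 4 were higher and 3 lower. Cd5, an inhibitory surface receptor of T cells, stood at 12.4 and 18.3 CPM against 297 and 298, and Lck, a kinase of T cell receptor signalling, at 398 and 464 against 710 and 669. The part of these cells in the histone values was not tested.

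**Figure D5:**
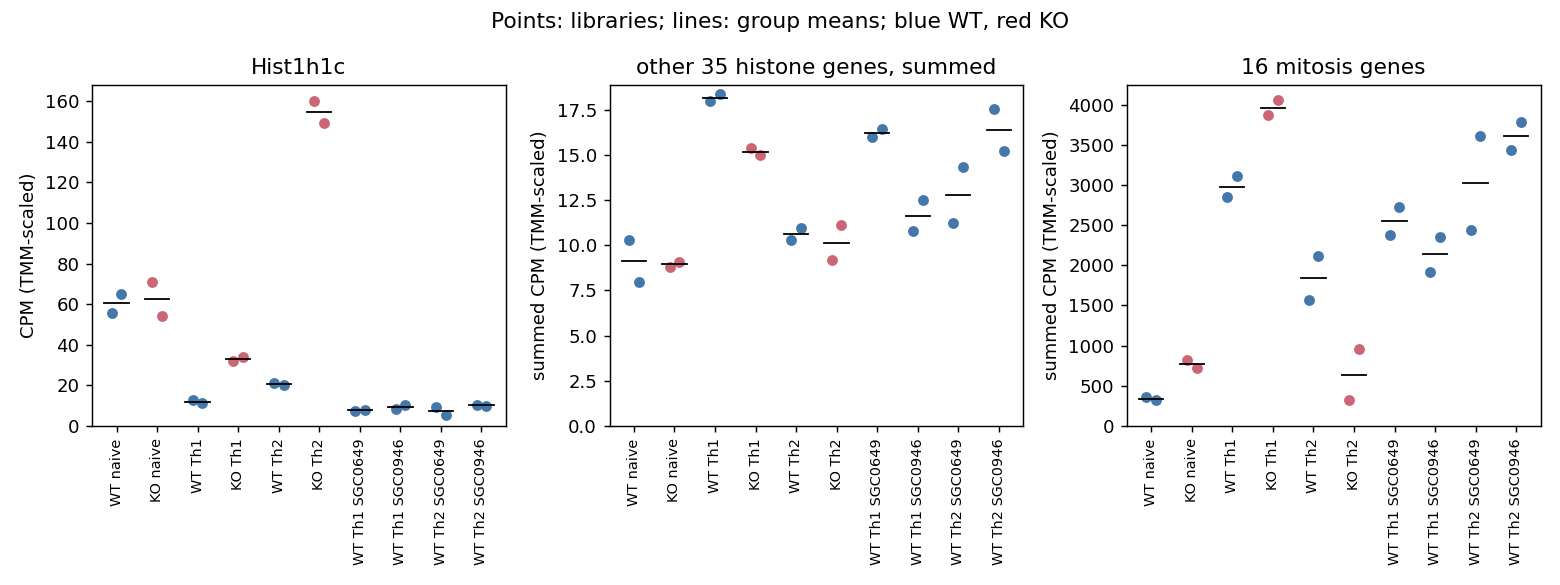
TMM-scaled CPM of Hist1h1c, of the 35 histone genes other than the 6 most abundant (summed) and of 16 mitosis genes (summed) by group (points are libraries, lines are group means, blue WT and red KO, axes from 0). Hist1h1c peaks in KO Th2, where the mitosis genes sum to 316 and 957 CPM, and the 35 low genes are highest in WT Th1 at 18 and 18.4 CPM.

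The KO effect differed between conditions for several genes, tested as the difference of the changes. For Hist1h1c it was larger in Th1 than in naive cells by 1.42 ± 0.23 on the log2 scale (adjusted p = 0.000318), larger in Th2 than in naive cells by 2.87 ± 0.22 (adjusted p = 9.61e-08) and smaller in Th1 than in Th2 by 1.45 (log2 difference -1.45 ± 0.24, adjusted p = 0.000129). Counted over the 15 genes, 1 was called in Th1 against naive, where 27.5% of all genes were (10.7% higher, 16.9% lower). In Th2 against naive 5 were called, where 35.7% of all genes were (17% higher, 18.7% lower). In Th1 against Th2 5 were called, where 46.2% of all genes were (22% higher, 24.3% lower). For Hist1h3c the Th1 effect exceeded the Th2 effect by 6.42 ± 1.21 (adjusted p = 0.000495), a fitted value that depends on the 0 counts in KO Th2. For Hist1h1d and Hist3h2a the Th1 effect was below the Th2 effect, by -2.34 ± 0.69 and -1.75 ± 0.58. The Hist1h1d call was lost without KO Th2 replicate 2 (adjusted p = 0.0685) and that of Hist3h2a in 6 of 16 alternatives (adjusted p up to 0.0915), among them without WT Th1 replicate 2, KO Th1 replicate 2, WT Th2 replicate 1 or KO Th2 replicate 1.

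Inhibition of DOT1L with SGC0946 was compared with SGC0649 at the same dose of 1 µM and the same 4 days. In Th1, 0 of 15 genes were called with edgeR, DESeq2 or limma voom and 0 had an unadjusted p under 0.05, where edgeR called 0.467% of all genes, 0.405% higher and 0.0612% lower. In Th2, 0 of 15 were called by each of the 3 tools and 1 had an unadjusted p under 0.05, where edgeR called 7.96% of all genes, 5.45% higher and 2.51% lower. Hist1h1c stood at 8.35 and 10.1 CPM with SGC0946 against 7.495 and 7.68 with SGC0649 in Th1 (log2 change 0.28 ± 0.22, 95% interval -0.20 to 0.76, adjusted p = 0.752). In Th2 it stood at 10.4 and 9.63 against 9.46 and 5.38 CPM (log2 change 0.44 ± 0.22, interval -0.04 to 0.92, adjusted p = 0.238). These intervals end below the Hist1h1c log2 changes in KO, 1.47 in Th1 and 2.92 in Th2. The controls differ, since KO was compared with WT cultures without compound. In those cultures Hist1h1c stood at 12.7 and 11.1 CPM in WT Th1 and 20.99 and 19.95 in WT Th2, above the SGC0649 values. Hist1h2bc changed by 0.37 (interval -0.44 to 1.19) in Th1 and 0.21 (-0.60 to 1.02) in Th2. Hist1h3c had 6 and 11 counts against 12 and 15 in Th1 and 10 and 10 against 8 and 12 in Th2. The gene with an unadjusted p under 0.05 was Hist1h1d in Th2, at 2.51 and 1.496 CPM against 0.591 and 1.23 (log2 change 1.12 ± 0.45, adjusted p = 0.149).

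The KO effect less the SGC0946 effect was tested directly, in different sets of libraries for its 2 parts. The control had no compound in the KO part and SGC0649 in the other. For Hist1h1c it was 1.19 ± 0.28 in Th1 (adjusted p = 0.00445) and 2.48 ± 0.27 in Th2 (adjusted p = 4.36e-06). It was 1.95 ± 0.50 for Hist1h2bc in Th2 (adjusted p = 0.00698) and -6.43 ± 1.25 for Hist1h3c in Th2 (adjusted p = 0.00106). Of the 15 genes, 1 was called in Th1, where 30.7% of all genes were (12.8% higher, 17.9% lower), and 3 in Th2, where 32% were (15% higher, 17% lower). With the replicate number as a block, the Th1 count was 2. In Th2, Npat fell with SGC0946 (log2 change -0.50 ± 0.11, adjusted p = 0.00997) and H1f0 (0.35 ± 0.07) and H1fx (1.85 ± 0.50) rose. The S phase and mitosis lists had 0 called genes with SGC0946 by edgeR in either condition.

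The control compound was also compared with no compound. With SGC0649, 0 of 15 genes were called in Th1, where 0.0153% of all genes were called, all of them higher, and 1 had an unadjusted p under 0.05, while DESeq2 and limma voom also called 0. In Th2 the count was 1, where 0.673% of all genes were called, 0.245% higher and 0.428% lower. That gene was Hist1h1c, at 9.46 and 5.38 CPM with SGC0649 against 20.99 and 19.95 without compound (log2 change -1.47 ± 0.20, adjusted p = 0.00400). The call was lost with the libraries of the contrast alone and without WT Th2 replicate 1 or WT Th2 SGC0649 replicate 2 (adjusted p up to 0.452). In Th1 the gene with the unadjusted p under 0.05 was Hist1h1c too, at 7.495 and 7.68 against 12.7 and 11.1 CPM (log2 change -0.64 ± 0.21, adjusted p = 0.817).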

How the data were processed

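RNA-seq of 20 libraries (10 groups, n = 2 each) was analysed from deposited tables of counts of reads per gene. Per the file headers, the authors made them with featureCounts 1.5.3 (strand option 2) and the GRCm38 annotation of Ensembl release 84, and edgeR and limma stand in the submitters' processing notes. The aligner is not given in the sources used here. Gene lengths in bases are a deposited unit of another kind, used for CPM per kilobase (1000 bases). Of 22048 protein-coding genes, 13072 passed filterByExpr (minimum 10 counts, 15 in total) and were fitted with edgeR 4.0.16 in R 4.3.3 over all libraries, with TMM scaling (factors 0.878 to 1.08), 1 mean per group, robust quasi-likelihood dispersions with 10 residual degrees of freedom and Benjamini-Hochberg adjustment over all genes tested. SE is the log2 change over the root of F. Intervals are at 95%. The fit was tested on simulated counts.

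Column names of 2 SGC0946 libraries give replicate 1 where titles give 2, and were matched by their unique sample numbers. Named genes were the 2 highest per class by CPM per kilobase, up to 3 called genes in each direction whose groups did not overlap and whose mean log2 CPM reached 1 in the KO and SGC0946 comparisons, and Dot1l, Slbp, Npat, H2afz, H2afx, H3f3b and Pcna. The members, lists and tests were chosen with earlier results of these data known. Of 139 list genes 138 were in the table. Alternatives were RLE scaling, library totals alone, no filter (17047 genes), DESeq2 1.42.0, limma voom (limma 3.58.1), the table of all gene classes (15938 genes), a fit to only the libraries compared, a replicate block and leaving out every library in turn. Same-numbered libraries deviated together among WT cultures (correlations 0.19 to 0.70, 15 pairs) and between KO and WT of a condition (0.13 to 0.28, 3 pairs). The number was taken to pair them there, on the data and not the labels. The fit reported here did not use this pairing, so its p-values are unpaired. The replicate block, an alternative only, put the same term on all libraries, naive ones included. Naive and cultured libraries of 1 genotype gave 0.08 (WT Th1), -0.013 (WT Th2), 0.24 (KO Th1) and -0.021 (KO Th2), and were not taken as paired. Stem-loops and shared 50-base stretches came from GENCODE M21 transcripts, promoters from RefSeq (GRCm38.p6).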

Additional observations from a re-analysis of the deposited data

Results flagged for a closer look

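Groups of 2 are too small for an outlier test within a group. The results below are differences of the KO effect between conditions that passed edgeR's quasi-likelihood test, on the log2 scale. The KO effect on Hist1h1c was larger in Th1 than in naive cells by 1.42 and larger in Th2 than in naive cells by 2.87, and the Th1 effect less the Th2 effect was -1.45. For Hist1h3c the Th2 effect less the naive effect was -7.06 and the Th1 effect less the Th2 effect 6.42, both resting on 0 counts in KO Th2. Hist1h2bc had a Th2 effect above the naive effect by 1.46, a call lost in 6 of 16 alternatives (adjusted p up to 0.109), among them without WT naive replicate 2, KO naive replicate 2, WT Th2 replicate 1, WT Th2 replicate 2 or KO Th2 replicate 1. For Hist1h2be, named after its values were seen, the Th2 effect exceeded the naive effect by 2.25. Hist1h4i had a Th2 effect less the naive effect of -0.98, lost in 11 of 16 alternatives, and a Th1 effect less the Th2 effect of 0.98, lost in 6 of 16. The Th1 effect less the Th2 effect was -2.34 for Hist1h1d and -1.75 for Hist3h2a.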

How the results depend on the processing

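Called values of the histone genes named by the rule above were followed under the alternatives. Of 545 such values, 475 stayed called in the same direction, 70 lost the call and 0 changed sign. Values of Hist1h1b, Hist1h1e, Hist1h2bj, Hist1h2ai, Hist1h2be and Hist2h4 are not among them. Counts of called genes stayed within 1.5 times in 162 of 200 cases. For KO against WT in naive cells the count of 2 became 1 with no filter, with DESeq2 and with the libraries of the contrast alone, and ran from 0 to 2 with a library left out. For KO Th1 (4) it ran from 1 to 2 with a library left out, and for KO Th2 (5) from 3 to 4, with 2 for the contrast alone. SGC0946 in Th1 stayed at 0 to 0 and in Th2 ran from 0 to 1. WT Th1 against naive ran from 6 to 11, WT Th2 against naive from 5 to 7, and WT Th1 against WT Th2 from 3 to 5, with 3 in DESeq2. SGC0649 against none gave 1 in Th1 and 0 in Th2 for the contrast alone, and 0 to 3 in Th2 with a library left out. The KO effect in Th2 less naive gave 3 with no filter, DESeq2 or the contrast alone and 2 to 5 with a library left out, and Th1 less Th2 gave 3 to 5. The KO effect less that of SGC0946 in Th1 gave 3 for the contrast alone, 1 to 2 with a library left out and 2 with the replicate block, which moved no other count by over 1.5 times. The contrast-alone fits tested 7 to 14 of the 41 genes. The cause of the other differences was not tested.

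Among the histone genes named by that rule, signs turned only for values that were not called. With a library left out, the log2 change ran from -0.16 to 0.24 for Hist1h1c in KO naive, from -0.27 to 0.22 for Hist1h3c in KO Th1 and from -0.25 to 0.21 for Hist2h2be in KO Th2. With SGC0946 in Th1 it ran from -0.53 to 0.17 for Hist1h1d and from -0.0152 to 0.43 for Hist2h2be. With SGC0946 in Th2 it ran from -0.0790 to 0.64 for Hist3h2ba, from -0.24 to 0.30 for Hist1h3c, from -0.27 to 0.44 for Hist1h4i and from -0.46 to 0.85 for Hist1h4d. Hist1h3c in KO Th1 was also at -0.00504 with no filter, -0.0104 with limma voom and -0.00498 with the replicate block, and with SGC0946 in Th2 at -0.0599 with library totals and -0.0277 in the table of all classes. The log2 ratio of summed CPM ran with a library left out from -0.17 to 0.17 in KO naive and from -0.0419 to 0.00709 in SGC0946 Th1. Without Hist1h1c, an alternative chosen after seeing the data, it was -0.0604 in KO naive and 0.0765 in WT Th1 against WT Th2. Library totals moved the median of all genes by 0.14 in KO Th1 and -0.17 in KO Th2.

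Depth limits the 26 genes below the filter most, whose summed level was 3.59 to 8.83 CPM.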
